A study of Mus musculus with 2 samples.

Results

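Inhibins, activins, follistatins and anti-Müllerian hormone (AMH) form one signalling group of the ovary, and its 10 genes Inha, Inhba, Inhbb, Amh, Fst, Fstl3, Amhr2, Acvr1b, Acvr2a and Acvr2b were followed here in unfertilised mouse oocytes with and without Mul1. They were chosen by gene name on the array, which gave 16 probes among 56600 gene probes, and 10 of 37008 gene names. All 16 member probes were well above background on both arrays, as were 35255 probes and 22894 genes in all. The groups were a wild-type pool of 213 oocytes (labelled MUL1 +/+) and a Mul1 knockout pool of 123 oocytes (MUL1 -/-), both from C57BL/6 mice, with 1 pool and 1 single-colour Agilent array per genotype. Mul1 encodes a ubiquitin ligase anchored in the outer membrane of mitochondria, and the study is titled for raised ROS and abnormal early embryos when oocytes lack it. The labels give no age, no number of animals, no part of the gene deleted, no stimulation of the animals and no step that removed cumulus cells.

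Activins are dimers of beta subunits, and inhibins pair the alpha subunit encoded by Inha with a beta subunit encoded by Inhba or Inhbb. In the follicle these proteins come mainly from granulosa cells. Activin binds a type II receptor (Acvr2a or Acvr2b), which recruits the type I receptor Acvr1b and leads to phosphorylation of SMAD2 and SMAD3, while inhibin occupies type II receptors without that signal and follistatin traps activin outside the cell. AMH, also made by granulosa cells of growing follicles, acts through its own type II receptor, Amhr2, and BMP-type SMADs, and is known for restraining follicle recruitment.

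Probes of Inha, Inhba, Amh, Fst, Amhr2 and Acvr2a follow in lower case, 5′ to 3′, as the scanner files give them, because each value describes only the stretch of transcript that its probe covers. The Amh probe ends on a TGA stop triplet in its first reading frame, which alone is set in capitals. The Acvr2a probe shown is the single probe of the group that was at least 2-fold apart.
Inha probe: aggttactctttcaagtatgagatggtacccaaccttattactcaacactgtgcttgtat
Inhba probe: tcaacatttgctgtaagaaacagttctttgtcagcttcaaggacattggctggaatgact
Amh probe: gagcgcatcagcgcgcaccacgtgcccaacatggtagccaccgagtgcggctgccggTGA
Fst probe: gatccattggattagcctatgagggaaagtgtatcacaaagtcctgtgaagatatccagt
Amhr2 probe at transcript base 413: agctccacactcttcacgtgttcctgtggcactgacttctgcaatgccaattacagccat
Acvr2a probe for AK050252: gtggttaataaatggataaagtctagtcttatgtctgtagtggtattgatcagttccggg
On mouse build mm9 the Inha probe lies at chr1:75506675-75506734, the Inhba probe at chr13:16118634-16118693 and the Amh probe at chr10:80270334-80270393. The Fst probe is given chr13:115244692-115245364 on the minus strand, so its 60 bases span 673 bases of genome, as a probe over an exon junction does. The Amhr2 probe lies at chr15:102276769-102276828 and the Acvr2a probe at chr2:48671567-48671626. Exon annotation of mm9 was not used here.

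Each genotype has a single array, so there is no spread between samples and no test, and precision is limited by how few arrays there are. Differences are log2 values, knockout minus wild type, each taken relative to the 75th percentile of its own array, and a gene's value is the mean over its probes. Signals are given with the error that the scanner software assigns to the spot, 10% of the signal for bright probes, which covers the spot and not the pool of oocytes. The probe for the Mul1 transcript NM_026689 read 3353 in wild type and 1074 in knockout, while the other Mul1 probe was dim at 19.3 and 23.1. Neither probe can be placed inside or outside the deletion, so they do not fully check the labels.

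None of the 10 genes was at least 2-fold apart between the arrays, where 4.29% of all 22894 genes were (2.93% higher and 1.37% lower on the knockout array). At 1.5-fold, 1 of 10 was higher (Acvr1b; 7.83% of all genes) and 1 lower (Amh; 5.19%), beside 13.0% of all genes apart in either direction. Acvr1b no longer reached 1.5-fold with quantile normalisation, loess, normexp, the authors' values or the brightest probe, nor did Amh with normexp. The median difference of the 10 genes was 0.20, with 6 above 0 and 4 below, against a median of 0.03 for all genes, of which 54.8% lay above 0. Of the 16 probes 0 were at least 2-fold higher and 1 was lower, where 2.72% and 1.86% of all probes well above background on both arrays were, 4.58% in all. At 1.5-fold 1 probe was higher and 2 were lower, beside 7.36% and 6.40% of all probes. In 6 of 16 probes the difference was smaller than the scanner software's error, and in 5 it was at least 2 times that error. In pooled RNA, fewer cells of a type and less RNA per cell cannot be told apart.

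**Figure D1:**
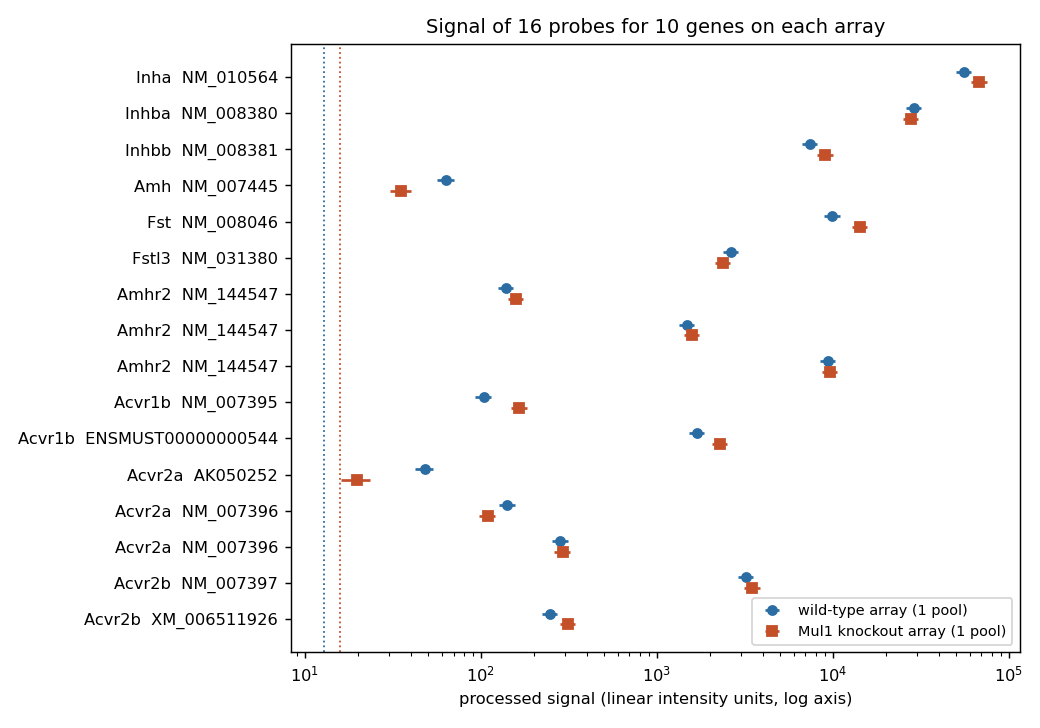
Processed signal of the 16 probes on the wild-type array (circles) and the Mul1 knockout array (squares), on a log axis, with bars for the scanner software's error and dotted lines at the lowest well-above-background signal of each array (12.9 and 15.8). Inha lies far to the right at 55712 and 67956, while Amh (63.3 and 35.4) and the Acvr2a probe for AK050252 (48.0 and 19.8) lie close to the dotted lines.

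Among the ligand subunits, Inha and Inhbb were each about 1.25-fold higher on the knockout array and Inhba was level. Inha, which encodes the alpha subunit that makes a dimer an inhibin, read 55712 ± 5571 in wild type and 67956 ± 6796 on the knockout array. These are levels of 6.11 and 6.43 above the 75th percentile on the log2 scale, a difference of 0.32 with a scanner error of 0.20. Its spots stood 4334 and 4297 times over the lowest well-above-background signal and were not saturated, and the knockout spot, which was kept, carried a flag on its local background. Among 528 probes within 0.5 log2 units of its mean signal, 3.22% differed by at least as much in either direction, and the interquartile range of their differences was -0.05 to 0.07. The Inha difference was thus larger than that of most equally bright probes.

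Inhba, the beta A subunit of activin A and inhibin A, read 28875 ± 2888 in wild type and 27906 ± 2791 on the knockout array. Its levels were 5.16 and 5.14, and its difference of -0.02 lay well inside the scanner error of 0.20. The sign turned to 0.09 with spike-in controls as the scale, a scaling that moved the median of all genes up by 0.11. Inhbb, the beta B subunit of activin B and inhibin B, read 7437 ± 744 and 9088 ± 909, with levels of 3.20 and 3.52 and a difference of 0.32. Of 2217 probes of like signal 11.0% differed by at least as much, and the interquartile range of those probes was -0.11 to 0.12. The Inhbb probe, for NM_008381, lies at chr1:121312160-121312219 on the minus strand of mm9.

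The balance of the subunits can be read within the arrays, where a shift of a whole array cancels. The difference of Inha minus that of Inhba was 0.34, with an error of 0.29 from the 4 signals, and it ran from 0.30 to 0.34 over the 10 other settings. Inhba minus Inhbb was -0.34, from -0.35 to -0.32. Inha minus Inhbb was -0.0027, from -0.02 to -0.0024. Only quantile normalisation, loess, normexp and the authors' values could move these contrasts, since the genes are bright with 1 probe each. The other settings leave them as they are, so the narrow ranges say little about stability. So the alpha and beta B signals moved by the same factor within error. The beta A difference lay below both by little more than the scanner error.

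Amh, the hormone gene, had the largest difference downward of the 10 genes, from a dim probe. It read 63.3 ± 6.95 in wild type and 35.4 ± 4.98 on the knockout array, which is 4.93 and 2.24 times the lowest well-above-background signal. Its levels were -3.67 and -4.48, and the difference of -0.81 (1.75-fold lower) exceeded its scanner error of 0.26. At that signal large differences were common, since 15.2% of 4326 probes of like signal differed by at least as much and their interquartile range was -0.27 to 0.37. The value shrank to -0.31 with normexp background correction, and Amh was not measured under the stricter filter on dim probes. Its probe was also the richest in G and C of the 16 at 68.3%, where the others ran from 35% to 60%. The part of signal level and base composition in this difference was not tested.

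Fst was the antagonist that differed, while the Fstl3 difference lay within its error. Follistatin, encoded by Fst, binds activin almost irreversibly and is itself induced in granulosa cells. The Fst probe read 9962 ± 996 in wild type and 14288 ± 1429 on the knockout array. Its levels were 3.62 and 4.18, a difference of 0.55 or 1.47-fold, which is more than 2 times the scanner error of 0.20 and just under the 1.5-fold line. Of 1869 probes of like signal 3.64% differed by at least as much, and the interquartile range of those probes was -0.10 to 0.11. Over the 10 other settings Fst ran from 0.54 to 0.66, so it passed 1.5-fold on the spike-in scale and in none of the others.

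Fstl3, a secreted relative of follistatin that also binds activin, read 2641 ± 264 and 2382 ± 238 at its probe for NM_031380. Its levels were 1.71 and 1.59, and its difference of -0.12 was smaller than the scanner error. Set against the subunits, Inhba minus Fst was -0.57 with an error of 0.29, from -0.58 to -0.54 over the few settings that could move it. The ratio of the beta A to the follistatin signal was thus 1.48-fold lower on the knockout array. Inha minus Fst was -0.23 and Inhbb minus Fst was -0.23, both smaller than their error. Against Fstl3 the differences were 0.44 for Inha, 0.44 for Inhbb and 0.10 for Inhba.

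**Figure D2:**
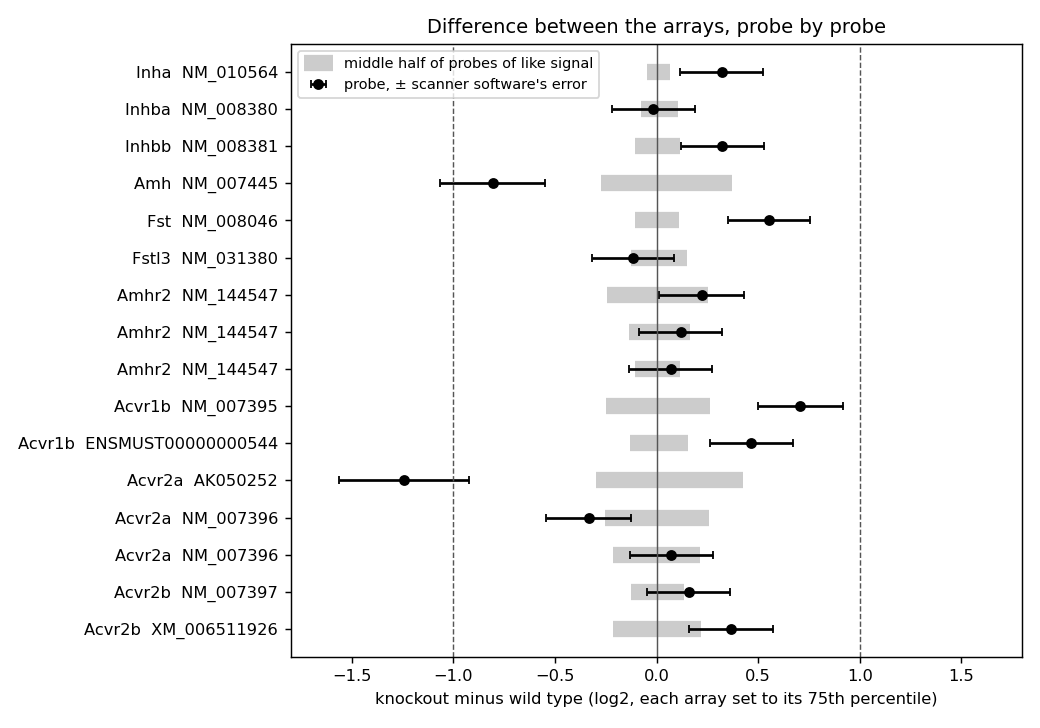
Knockout minus wild type of each probe (points, log2) with the scanner software's error as bars, grey bands for the interquartile range of all probes of like signal, and dashed lines at 2-fold. Beyond their bands to the right lie the points of Inha and Inhbb (0.32 each), Fst (0.55), Acvr1b (0.71 and 0.47) and Acvr2b (0.16 and 0.36). To the left lie Amh at -0.81 and the Acvr2a probes for AK050252 at -1.24 and at base 2517 at -0.33.

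The AMH receptor gene read slightly higher in knockout at each of its probes. Amhr2 had 3 probes along the transcript NM_144547, at bases 413, 1545 and 1806. The probe at base 413 read 139 ± 14.2 in wild type and 159 ± 16.3 in knockout, a difference of 0.22. The probe at base 1545 read 1489 ± 149 and 1580 ± 158, a difference of 0.12. The probe at base 1806 read 9382 ± 938 and 9631 ± 963, a difference of 0.07. All 3 lay above 0, the last 2 within their scanner error of 0.20 and the first just outside its error of 0.21, and the gene's mean was 0.14. More than 54% of probes of like signal differed by at least as much at each position (54.6%, 59.9% and 65.4%). Hormone and receptor therefore read apart from each other, with Amh minus Amhr2 at -0.94, which ran from -1.0 to -0.42 over the other settings and rests on the dim Amh probe.

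Of the activin receptors, Acvr1b was higher at both probes, Acvr2b slightly higher, and Acvr2a disagreed between probes. Acvr1b encodes the type I receptor ALK4, which carries the activin signal to SMAD2 and SMAD3. Its brighter probe, for ENSMUST00000000544 at chr15:101043956-101044015 of mm9, read 1691 ± 169 in wild type and 2283 ± 228 in knockout, a difference of 0.47. Its dimmer probe, for NM_007395 at chr15:101042850-101042909, read 104 ± 10.8 and 166 ± 16.9, a difference of 0.71. Both differences were over 2 times their scanner errors of 0.20 and 0.21. Of probes of like signal 8.93% differed by at least as much as the brighter probe and 14.2% as the dimmer one. The gene's mean of 0.59 (1.501-fold) was the highest of the 10 genes as scaled here, and it ran from 0.47 to 0.70 over the other settings, with the brighter probe alone giving the lowest value. The Fst difference was higher than that of Acvr1b with normexp (0.54 against 0.47) and with the brightest probe (0.55 against 0.47).

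Acvr2a, a type II receptor for activin, had 3 probes that spread over 1.32 log2 units. The probe for AK050252, a cDNA clone rather than a RefSeq transcript, read 48.0 ± 5.46 in wild type and 19.8 ± 3.78 in knockout, a difference of -1.24 or 2.37-fold lower. On the knockout array that spot stood only 1.25 times over the lowest well-above-background signal, and -0.43 was its smallest difference over the other settings. The probes for the RefSeq transcript NM_007396 read 142 ± 14.4 and 110 ± 11.4 at base 2517 (where the wild-type spot carried a flag on its local background) and 284 ± 28.5 and 292 ± 29.4 at base 5155, differences of -0.33 and 0.07. The AK050252 probe lies 84054 bases before the former of these on chromosome 2 and the latter 2638 bases beyond it, so the probes read distant parts of the locus. The gene's mean of -0.50 thus hangs on the dimmest probe, and the brightest probe alone put the gene at 0.07.

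Acvr2b, the other type II receptor, read 3201 ± 320 in wild type and 3492 ± 349 on the knockout array at its probe for NM_007397 (chr9:119342560-119342619), a difference of 0.16 that was within its scanner error. The probe for the predicted transcript XM_006511926 read 248 ± 25 and 312 ± 31.4, a difference of 0.36. Both were above 0, with a mean of 0.26. Between the receptors, Acvr1b minus Acvr2b was 0.32, from 0.23 to 0.33 over the other settings. Acvr1b minus Acvr2a was 1.09 but fell to 0.66 with normexp, 0.72 under the stricter filter on dim probes and 0.39 with the brightest probe of each gene. The Acvr1b difference thus exceeded that of Acvr2b by more than the error of 0.21, and the place of Acvr2a depended on the probe used.

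**Figure D3:**
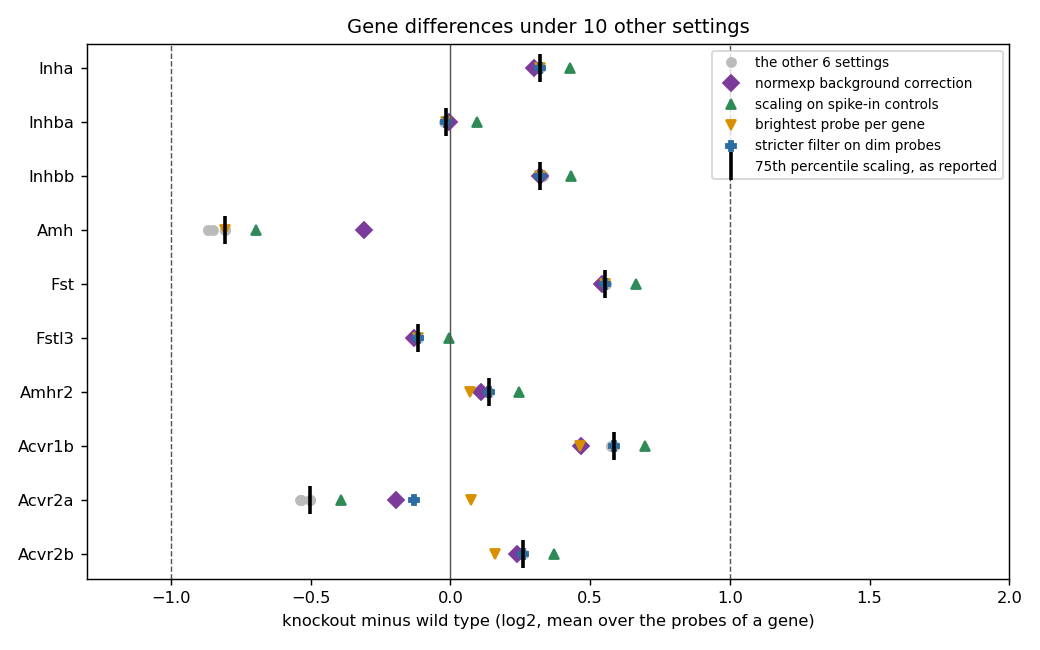
Knockout minus wild type of each of the 10 genes (log2) as reported (black ticks) and under 10 other settings, with normexp background correction, spike-in scaling, the brightest probe and the stricter filter on dim probes marked. Inha, Inhbb, Fst and Acvr1b stay to the right of 0 in all settings, Inhba crosses 0 on the spike-in scale, Amh moves from -0.81 to -0.31 with normexp, and Acvr2a moves to 0.07 with its brightest probe.

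The rest of the pathway was described by lists written by role. All 101 further genes, each counted once, were on the array, 93 of them were well above background on both arrays, and their median difference was 0.10, with 56 above 0. At least 2-fold apart were 3 higher and 1 lower, 4 of 93, beside the 4.29% of all genes.

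Other ligands of the TGF-beta family had a median of 0.27, with 12 of 17 measured above 0, and 1 of them at least 2-fold apart. That was Bmp4, a BMP of theca and stroma, at 1.19 over 2 probes (signals of 126 in wild type and 281 in knockout), with 0.86 as its lowest value over the other settings. The oocyte's own ligands, named for their role, read -0.11 for Gdf9 and 0.53 for Bmp15. The other inhibin subunit genes were dim or not measured. Inhbe read 15.1 and 16.9, and Inhbc was well above background on neither array.

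Other receptors and co-receptors had a median of 0.18, with 10 of 13 above 0 and 0 genes 2-fold apart. The endothelial type I receptor gene Acvrl1 was highest at 0.66 and the BMP receptor gene Bmpr1a lowest at -0.11. The inhibin co-receptor gene Tgfbr3, betaglycan, named for its role, was at 0.11. Igsf1 passed background in knockout alone.

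Other extracellular antagonists had a median of -0.15, with 5 of 12 above 0, and the SMADs and their partners one of -0.02, with 9 of 18 above 0. Wfikkn1, which encodes a secreted inhibitor of myostatin and GDF11, was the antagonist at least 2-fold apart, at -1.53 (799 in wild type and 270 in knockout), and it ran from -1.54 to -1.34 over the other settings. No SMAD gene was 1.5-fold apart. The shared Smad4 was highest at 0.32 and the SMAD corepressor gene Skil lowest at -0.48. The SMADs that carry the activin signal, named for their role, read -0.24 for Smad2 and -0.38 for Smad3, below 0 at both probes of each gene. The Smad2 probes read -0.32 and -0.16 and the Smad3 probes -0.39 and -0.38, and no scanner error is given for them. Acvr1b thus lay above 0 and these small values below it, while Smad4 lay above 0 too. SMAD phosphorylation was not measured.

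Response genes of TGF-beta, activin and BMP signals had a median of 0.16, with 11 of 15 above 0. The BMP target Id1 was the member at least 2-fold apart, at 1.36 (2486 and 6235), from 1.32 to 1.47 over the other settings. Its relatives Id2, Id3 and Id4, named for their role, read -0.16, 0.16 and 0.55, and the Id2 probes disagreed at -0.77 and 0.46. Smad6, Smad7, Skil and Bambi stand in this list and in another one.

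Genes that process or store the ligands had a median of -0.10, with 3 of 9 above 0. Ltbp4, a latent TGF-beta binding protein gene, was at least 2-fold higher at 1.68, with its probes at 1.23 and 2.13 (mean signals of 106 and 332). The convertase gene Furin, which can cleave the precursors, was bright and read 0.11. Regulators of inhibin and AMH in granulosa cells had a median of 0.11, with 9 of 13 above 0 and 0 genes 2-fold apart. The aromatase gene Cyp19a1 was highest at 0.63, and the FSH receptor gene Fshr, named for its role, was at 0.35.

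**Figure D4:**
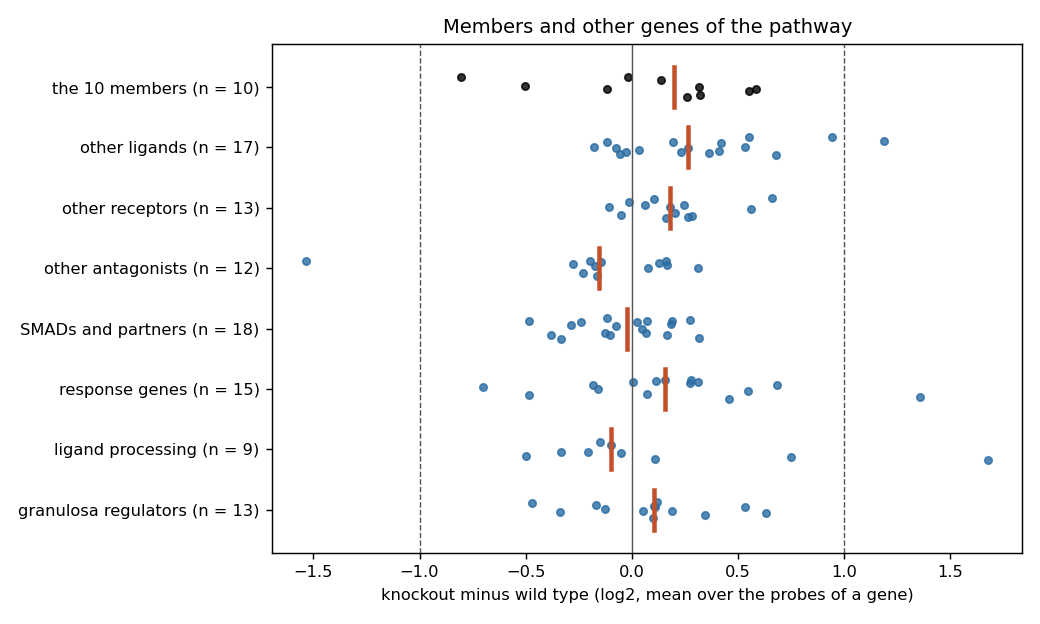
Knockout minus wild type (log2) of the 10 members and of the genes of 7 pathway lists measured on both arrays (points, 1 per gene) with the median of each group as a vertical bar and dashed lines at 2-fold. No member crosses a dashed line, and the genes that do are Bmp4, Wfikkn1, Id1 and Ltbp4.

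Since inhibin, follistatin and AMH genes are granulosa genes, markers of the cells that the pools could hold were read beside them. All 11 oocyte markers were well above background on both arrays, as the label requires, with a median difference of -0.08 and a summed level, in units of the 75th percentile, of 242 in wild type and 225 in knockout. They ran from -0.21 for Dppa3 to 0.77 for Nlrp5. All 15 cumulus and granulosa markers were well above background too. Their median was 0.14, with 11 of 15 above 0 and summed levels of 125 and 128, from -0.34 for Nr5a2 to 1.16 for the hyaluronan synthase gene Has2.

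Measured against the median of those granulosa markers, Inha lay at 0.18 (0.05 to 0.19 over the other settings), Inhbb at 0.19 (0.05 to 0.20) and Inhba at -0.15 (-0.29 to -0.13). Fst lay at 0.42 (0.28 to 0.42), Fstl3 at -0.25 (-0.39 to -0.25) and Amh at -0.94 (-1.08 to -0.44). Of the receptors, Amhr2 lay at 0.00 (-0.16 to 0.00), Acvr1b at 0.45 (0.24 to 0.45), Acvr2a at -0.64 (-0.77 to -0.15) and Acvr2b at 0.13 (-0.07 to 0.13), so the sign of Acvr2b and Amhr2 depended on the setting. The Fst difference was thus smaller relative to these markers than on the array's own scale, and the part of follicle cell content in the members' values was not tested.

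The other marker lists ranged from medians near 0 to -1.39 and 1.82, beside 0.20 for the members. Myeloid markers were all 11 above 0 with a median of 1.82, from 0.60 for Csf1r to 3.27 for S100a9, and summed levels of 13.8 and 44.3. Of these, Ptprc (0.84) was a mean over 4 of its 7 probes, which ran from -0.41 to 1.45. Its lowest value over the other settings was -0.41, and the Csf1r probes read 0.02 and 1.19. All 5 red cell genes were lower with a median of -1.39, from -1.66 for Hba-a2 to -1.03 for Alas2, and summed levels of 74.1 and 24.3. Of 6 oviduct epithelium markers 5 were above 0 with a median of 0.68, from -0.14 for Krt18 to 1.54 for Ovgp1, and summed levels of 95.1 and 151. The rise in that sum lay with Ovgp1 (levels of 4.91 and 6.45), as the other bright markers, Krt8 and Krt18, read 0.06 and -0.14. Epcam, Pax8 and Foxj1 were dim, with wild-type signals of 40.2, 31.6 and 125. Mural and luteal markers had a median of 0.03 over 6 genes (summed levels of 112 and 110), with Ptgfr at 0.24 and Star at -0.96. The 7 measured theca and stroma markers had 0.33 as their median (6.29 and 7.70), with Tagln at 0.62 and Dcn at -0.94, and Lum passed background in wild type alone. Endothelial markers had a median of 0.03 over 4 genes (2.56 and 2.94), with Kdr at 1.13, Tek at -0.27, and Emcn well above background on neither array. The Kdr value came from 1 of its 3 probes, and 0.01 was its lowest over the other settings. The part of these cell types in the members' values was not tested.

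**Figure D5:**
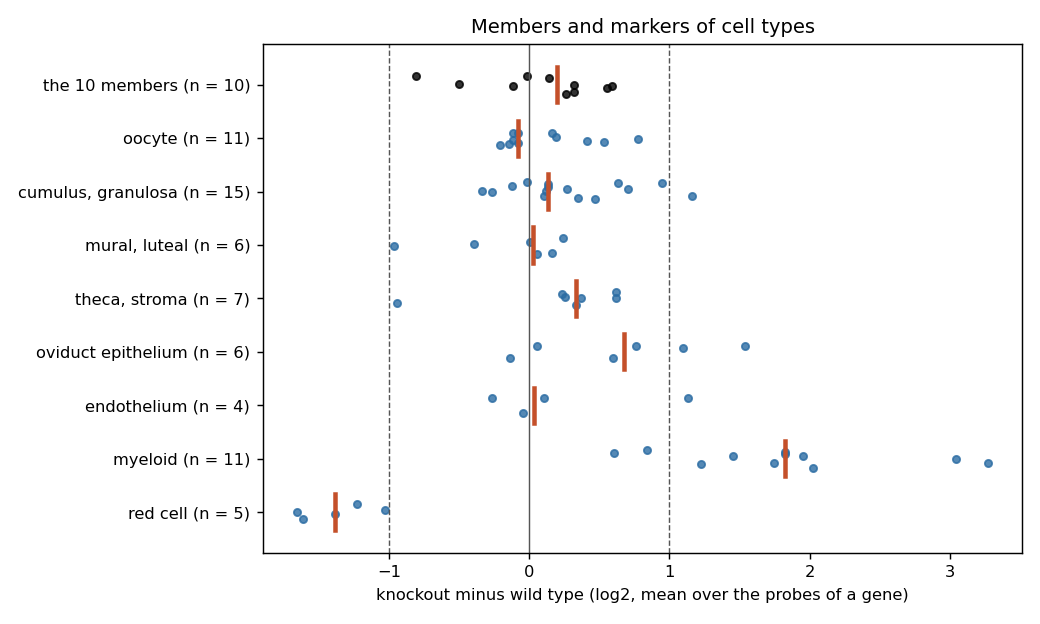
Knockout minus wild type (log2) of the 10 members and of 8 lists of cell type markers (points, 1 per gene well above background on both arrays) with the median of each group as a vertical bar and dashed lines at 2-fold. Members, oocyte markers and most granulosa markers lie between the dashed lines, while 9 of 11 myeloid markers lie beyond 2-fold on the right and all 5 red cell markers on the left.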

How the data were processed

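RNA of 1 oocyte pool per genotype was labelled with Cy3 after low-input amplification, per the labels' protocols, and hybridised to 1 array of Agilent design 074809. Spot intensity, linear and with spatial and multiplicative detrending on and background correction off, came from Feature Extraction 10.7.1.1 per the file headers, and version 9.5.1.1 is given in the submitters' processing notes. The authors' deposited value table of intensity served as an alternative. Its sorted columns are the same within 0.0243%, with medians of 57.95, and it follows the scanner differences with r = 0.997 across probes, so scale and direction are known.

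Spots with outlier flags were left out (88 and 84, no member among them), log2 was taken, repeated spots were averaged per probe, and the 75th percentile of the array (a signal of 808 or 790) was subtracted. A probe counted where well above background on both arrays. Probes outside the 10 genes were named through RefSeq (GRCm38.p6, names only): 32980 by accession, 10238 by symbol, 520 by synonym and 12867 by the file's name. Sizes of 2-fold and 1.5-fold stand in for calls. The members and lists were chosen with earlier results of these data known. Named are all members, the genes of each pathway list at least 2-fold apart or else its extremes, the extremes of each marker list, and genes added later for their role or to complete a count. Some genes of the lists are not reported here by name. No protein table was used, so probes were printed for Inha, Inhba, Amh, Fst, Amhr2 and the Acvr2a probe 2-fold apart, not by the translation rule planned, and the choice came after values were seen. The summary was tested on simulated data built from the wild-type array, with equal noise on every probe and all probes set as well above background. That test therefore does not cover the filter or the wider spread of dim probes such as those of Amh and Acvr2a. Tools were Python 3.11.15, R 4.3.3 and limma 3.58.1.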

Additional observations from a re-analysis of the deposited data

How the results depend on the processing

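No paired analysis was possible because each genotype has 1 array, and leaving out an array was not possible. In all, 10 other settings were computed, and 0 members were at least 2-fold apart in any of them. The member median ran from 0.12 with the brightest probe to 0.31 on the spike-in scale (8 spike-in probes), where 79.6% against 68.2% of the genes at least 2-fold apart were higher. For all genes, the counts of 670 higher and 313 lower became 212 and 116 with normexp (offset 50), 2764 and 1327 without a filter on dim probes and 338 and 195 with the stricter filter (4 times the lowest signal well above background). Other ligands at least 2-fold higher numbered 2 on the spike-in scale, 0 with normexp and 2 with the brightest probe. Without a filter, 1 antagonist was at least 2-fold higher. At 1.5-fold, members higher numbered 0 with quantile normalisation, loess (span 0.3), normexp, the authors' values or the brightest probe, and 2 on the spike-in scale. Members lower at 1.5-fold numbered 0 with normexp and under the stricter filter, which removes Amh. With 1 array per genotype, dim probes limit Amh and Acvr2a most.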

Other observations

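Among the pathway genes and members with several measured probes, 5 of 50 (10%) had probes that spread over at least 2-fold between the arrays, beside 7.28% of 8037 such genes in all. They were Acvr2a, Gdf3 (-0.01 and 1.11), Id2, the kit ligand gene Kitl (-0.83 to 0.32 over 3 probes) and the Nodal co-receptor gene Tdgf1 (-0.13 to 1.03 over 5 probes). For these genes a mean over probes hides that spread, and the part of transcripts and of dim signals in it was not tested.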
